A study of Mus musculus with 42 samples.

Results

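Neurons taken from the embryonic hippocampus and cortex of the mouse and grown in dishes are widely used as a stand-in for the tissue they come from. The question addressed here was which expression differences between hippocampus and cortex remained after 14 days in vitro, which were lost, which appeared only there, and which turned round. All 42 Affymetrix mouse arrays of the series entered the comparison. They fall into 4 systems, namely hippocampal culture (10 arrays), cortical culture (10 arrays), primary hippocampus (12 arrays) and primary cortex (10 arrays). Each system holds Fmr1KO and WT arrays in equal number, 5 or 6 of each. Fmr1KO mice lack the RNA-binding protein FMRP, which is the mouse model of fragile X syndrome, and both genotypes were of the C57BL/6 strain. All samples were untreated. The primary tissue was collected at embryonic days 17 to 18, and the cultures were started from embryos of the same age. RNA (100 ng per array) was pooled from littermates, so an array stands for a litter and not for a single animal. The mouse IDs of the labels, read here as litters, show that 10 litters supplied all 4 systems while 2 supplied primary hippocampus only. The Fmr1 knockout is constitutive, and the cultures hold glia beside the neurons.

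During development the medial edge of the dorsal telencephalon, called the cortical hem, releases Wnt and BMP proteins that pattern the neighbouring hippocampus. Hippocampal neurons and neocortical neurons then come to express different transcription factors, among them Zbtb20 and Prox1 on the hippocampal side and the layer-specific factors of the neocortex on the other. Dissected tissue also carries choroid plexus, meninges, vessels, microglia and dividing progenitors, while a neuronal culture holds mainly the neurons and glia that survived plating or arose in the dish. Because the arrays measured bulk RNA, fewer cells of a type and less RNA per cell cannot be told apart. Age and preparation cannot be told apart either, since every culture was older than every tissue sample.

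Signals are log2 values from RMA, which corrects background, aligns the probe distributions of the arrays and summarizes the probes of a probe set. A difference of 1 on this scale is 2-fold. A region difference is hippocampus minus cortex, and the interaction is the region difference in culture minus that in tissue, so that a negative interaction means less hippocampal excess in culture. For a gene with several probes the probe of highest mean signal was taken, which gave 18194 genes, and limma was fitted to the 4 systems with genotype as covariate and Benjamini-Hochberg adjustment over 45037 probes. A background of 5.16 was set from 123 probes of odour and pheromone receptors and of keratin-associated proteins, taken as not used by brain cells. Where the lower of a pair of system means lay at or below it, the fold is written as at least that size. The median signal of the arrays lay between 5.40 and 5.56. Fmr1 itself was lower in all Fmr1KO arrays than in all WT arrays of the same system, with 7.88 to 8.11 in Fmr1KO and 8.69 to 9.17 in WT hippocampal culture, and 8.92 to 9.18 in Fmr1KO and 9.80 to 10.07 in WT primary hippocampus. In cortical culture the margin was narrow, with KO litter 2221 at 8.44 and WT litter 2643 at 8.47. The hippocampal culture of WT litter 2644 stood apart from its group. Its mean over 31 cell cycle genes was 7.29, where the median of the 10 hippocampal cultures was 6.25. Among the 10 cortical cultures the lowest mean over these genes was 6.31, where the median was 7.21.

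The region difference depended on the preparation for 5881 genes, 32.3% of those tested (limma, adjusted p under 0.05). The interaction was positive for 2750 of them (15.1% of all genes) and negative for 3131 (17.2%). At least a 2-fold interaction was called for 922 genes (5.07%), 308 positive and 614 negative. Without a fold minimum, 14.9% of all genes were higher and 13.7% lower in hippocampal culture, and 19.8% were higher and 16.8% lower in primary hippocampus. In culture 451 genes (2.48%) differed at least 2-fold between the regions, 233 higher and 218 lower in hippocampal culture. In tissue 708 genes (3.89%) did so, 461 higher and 247 lower in primary hippocampus. The sets shared 162 genes, of which 153 had the same sign and 9 the opposite sign.

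Genes were then sorted by both contrasts. A difference was called kept when both contrasts passed with the same sign and at least 1 of them reached 2-fold, which held for 446 genes (2.45% of all genes). It was called lost when a 2-fold tissue difference met no called culture difference and the interaction passed (299 genes, 1.64%), and gained in the mirror case (130 genes, 0.715%). It was called reversed when both contrasts passed with opposite signs and at least 1 reached 2-fold (106 genes, 0.583%). A further 16 genes (0.0879%) passed in 1 preparation without a called interaction and stayed undecided. In all, 997 genes (5.48%) had a class or were undecided. At the edge of the culture threshold, Vwa5b2 lay just inside with -1.0003 and Zic5 just outside with 0.999, and at the tissue threshold Rian lay inside with -1.0002 and Slc4a10 outside with -0.9986.

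**Figure D1:**
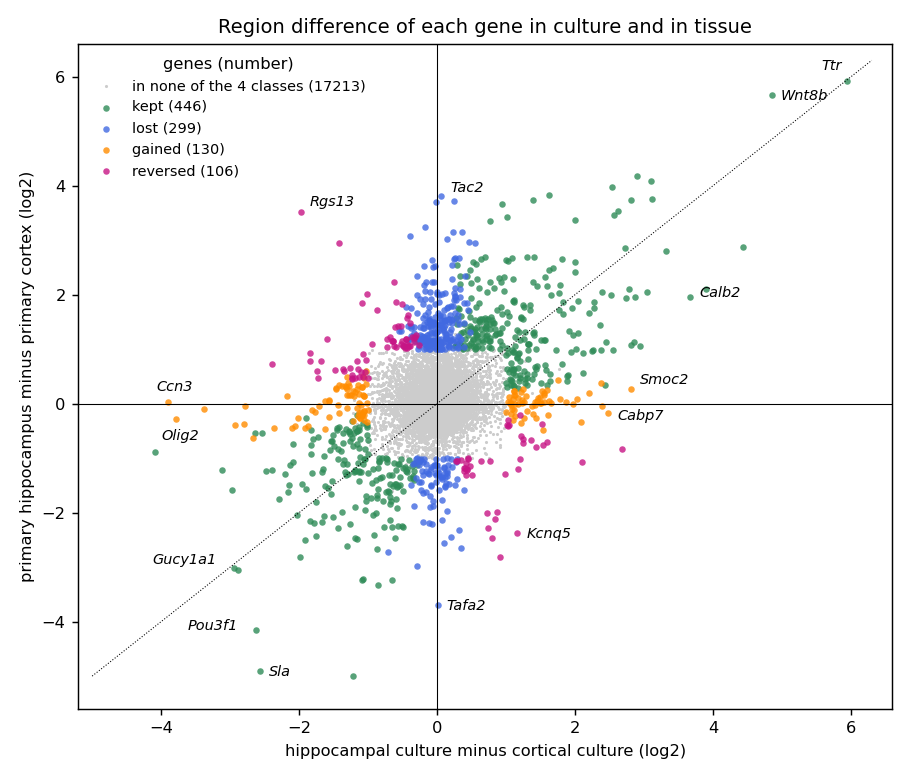
Region difference of 18194 genes, in culture on the x axis (hippocampal culture minus cortical culture, log2) and in tissue on the y axis (primary hippocampus minus primary cortex, log2), with points coloured by class and the dotted line marking equal differences. Kept genes (446) lie in the lower left and upper right, lost genes (299) along the vertical axis, gained genes (130) along the horizontal axis, and reversed genes (106) in the upper left and lower right.

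Of the 708 tissue differences, 332 (46.9%) were kept, 299 (42.2%) lost, 69 (9.75%) reversed and 8 (1.13%) undecided. Genes higher in primary hippocampus were kept in 42.7% of cases and lost in 47.1%, while genes lower there were kept in 54.7% and lost in 33.2%. Seen from the culture side, 267 of 451 differences (59.2%) were kept, 130 (28.8%) were gained and 46 (10.2%) ran the other way in tissue. The sign in culture was that in tissue for 493 of the 708 genes, and the median of their culture difference over their tissue difference was 0.208. Across the 12525 genes above background in at least 1 system the 2 region differences correlated with Pearson's r 0.321 and Spearman's rho 0.12, a description over genes, which are not independent replicates.

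Each array was given a region score, the mean of the genes higher in hippocampus minus the mean of the genes lower there. With the 708 genes chosen in tissue, the score was -0.09 ± 0.21 in hippocampal culture and -1.12 ± 0.25 in cortical culture (SD, n = 10 each), against 1.04 ± 0.35 in primary hippocampus (SD, n = 12) and -2.19 ± 0.15 in primary cortex (SD, n = 10). The fold used to choose these genes came from tissue alone, while the spread behind the adjusted p was shared by all 42 arrays. Every hippocampal culture (-0.48 to 0.34) scored above every cortical culture (-1.40 to -0.72). With the 451 genes chosen in culture, every primary hippocampus array (0.13 to 0.65) scored above every primary cortex array (-1.09 to -0.88). In both directions the arrays whose differences were not used in the choice also separated by region. Their gap was smaller than that of the arrays used for the choice, which the choice itself favours. Cultures and tissues shared litters, so this is not an independent replication.

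**Figure D2:**
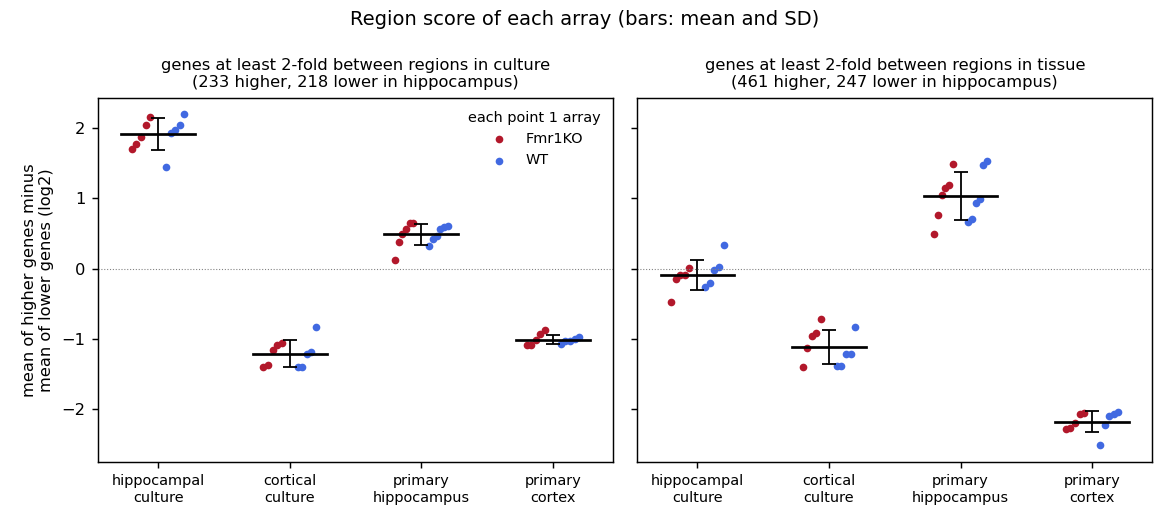
Region score of each array (log2, mean of genes higher in hippocampus minus mean of genes lower there) in the 4 systems, for genes chosen in culture on the left and in tissue on the right; each point is 1 array, coloured by genotype, with mean and SD bars. With tissue-chosen genes the hippocampal cultures lie between -0.48 and 0.34 and the cortical cultures between -1.40 and -0.72, inside the span of the tissues.

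The most pronounced kept difference among the patterning genes was that of Wnt8b, a Wnt ligand made by the cortical hem. Its lowest, median and highest signals were 7.46, 8.96 and 9.58 in hippocampal culture and 3.60, 3.83 and 4.92 in cortical culture, against 8.54, 9.57 and 10.52 in the primary hippocampus and 3.46, 3.66 and 5.20 in the primary cortex. Hippocampus and cortex did not overlap in either preparation, and both cortical systems averaged below background. Hippocampal culture was at least 28.8-fold higher (4.85 ± 0.25 SE, adjusted p = 8.36e-19) and primary hippocampus higher by at least 5.67 ± 0.24 log2 (adjusted p = 2.39e-22), with an interaction of -0.82 ± 0.34 (adjusted p = 0.0712).

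Zbtb20, a zinc finger repressor that directs pyramidal neurons of the mouse hippocampus to their fate, also kept its difference. It measured 11.40, 12.12 and 12.28 in hippocampal culture and 9.86, 10.27 and 10.70 in cortical culture, against 11.54, 12.10 and 12.56 in the primary hippocampus and 9.62, 9.999 and 10.36 in the primary cortex. The difference was 3.41-fold in culture and 4.09-fold in tissue, without a called interaction (-0.26 ± 0.16, adjusted p = 0.247). Msx1, a homeobox gene of the dorsal midline, had 2.01-fold higher signal in hippocampal culture and 2.03-fold higher signal in primary hippocampus.

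Ttr, which encodes the thyroid hormone carrier secreted by choroid plexus epithelium, had the largest region difference of the kept genes, at least 61.3-fold in culture and 60.9-fold in tissue. In culture the regions were apart, with 8.54, 10.23 and 11.05 in hippocampal and 3.80, 4.22 and 4.75 in cortical culture. In tissue they overlapped, with 10.44, 12.05 and 13.74 in the primary hippocampus and 3.94, 4.86 and 12.02 in the primary cortex. The primary cortex of WT litter NT (12.02) lay within the hippocampal range and that of WT litter 2644 (10.43) just below it, while the other 8 litters did not exceed 7.07. Without the primary cortex of litter NT the tissue difference was 94.2-fold and the interaction -0.62, where with all arrays it was 0.01, not called in either case. Over the 18 choroid plexus genes the array means were 5.62 to 6.52 in hippocampal culture and 5.23 to 5.78 in cortical culture, against 5.77 to 6.86 in the primary hippocampus and 4.68 to 5.46 in the primary cortex, and the part of this tissue in the Ttr values was not tested.

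Among other kept genes higher in hippocampus, Rerg, a small Ras-like GTPase, was at least 8.70-fold higher in culture and at least 13.5-fold higher in tissue. Cnmd, which encodes chondromodulin, was at least 8.56-fold and at least 17.0-fold higher, and its interaction of -0.99 ± 0.35 was called at an adjusted p of 0.0311 but not with litter as a fixed block (-0.82, adjusted p = 0.0535) or without the hippocampal culture of KO litter 4236 (-0.78, adjusted p = 0.0543). Lhx9, a LIM-homeodomain factor of the developing forebrain, was at least 7.44-fold higher in culture and 18.0-fold higher in tissue. Its levels also differed between the preparations, with medians of 6.12 in hippocampal culture and 3.20 in cortical culture, against 9.76 in the primary hippocampus and 5.62 in the primary cortex. It is also a marker of thalamus and habenula, and over the 18 genes of that list the array means were 5.32 to 5.72 in hippocampal culture and 4.94 to 5.21 in cortical culture, against 6.31 to 6.59 in the primary hippocampus and 5.52 to 5.77 in the primary cortex, with the part of such cells not tested.

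Calb2, the calcium-binding protein calretinin, was among the genes with a larger difference in culture, 12.7-fold against 3.88-fold in tissue (interaction 1.72 ± 0.44, adjusted p = 0.00256). The WT litter 2644 array was the lowest of the hippocampal cultures for Calb2 (9.61, the others 11.05 to 12.04).

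On the cortical side Sla, an adaptor protein of Src-like signalling and a marker of developing neocortical neurons, had one of the largest tissue differences. Its signals were 5.09, 5.33 and 6.76 in hippocampal culture and 7.0, 8.18 and 8.44 in cortical culture, against 5.37, 5.92 and 8.14 in the primary hippocampus and 10.96, 11.06 and 11.22 in the primary cortex. The regions were separate in both preparations, yet the difference was smaller in culture, 5.96-fold lower in hippocampal culture against 29.9-fold lower in primary hippocampus (interaction 2.33 ± 0.34, adjusted p = 9.24e-07).

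Pou3f1, a POU-domain factor of neocortical projection neurons, had the same pattern, 6.17-fold lower in hippocampal culture and 17.8-fold lower in primary hippocampus (interaction 1.53 ± 0.32, adjusted p = 2.33e-04). Mef2c, an activity-dependent transcription factor of neurons, was 3.98-fold lower in culture and 7.0-fold lower in tissue, and its other 4 probes gave interactions of 0.84 to 1.10. St6gal2, a sialyltransferase, had nearly the same difference in both, 4.08-fold and 4.15-fold lower (interaction 0.02 ± 0.15). Mir124-2hg, a host transcript of the neuronal microRNA miR-124, was at least 7.39-fold lower in culture and 8.34-fold lower in tissue. For Gucy1a1, a subunit of the nitric oxide receptor, the probes disagreed, since the brightest gave an interaction of 0.07 ± 0.24 and the other probes gave 1.40 and 1.58.

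Of the 446 kept differences, 191 were smaller in culture by a called interaction, 111 were larger and 144 had no called difference in size. Of the 446, 319 were above background in all 4 systems. For the rest at least 1 system mean lay at or below background, so the sorting by size is less certain. The median of culture minus tissue level was 0.23 log2 for kept genes higher in hippocampus and -0.04 for those lower there. For lost genes it was -0.09 and 0.51 in the same order, and over all genes 0.02. Rises and falls of single genes cancel in such a median.

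**Figure D3:**
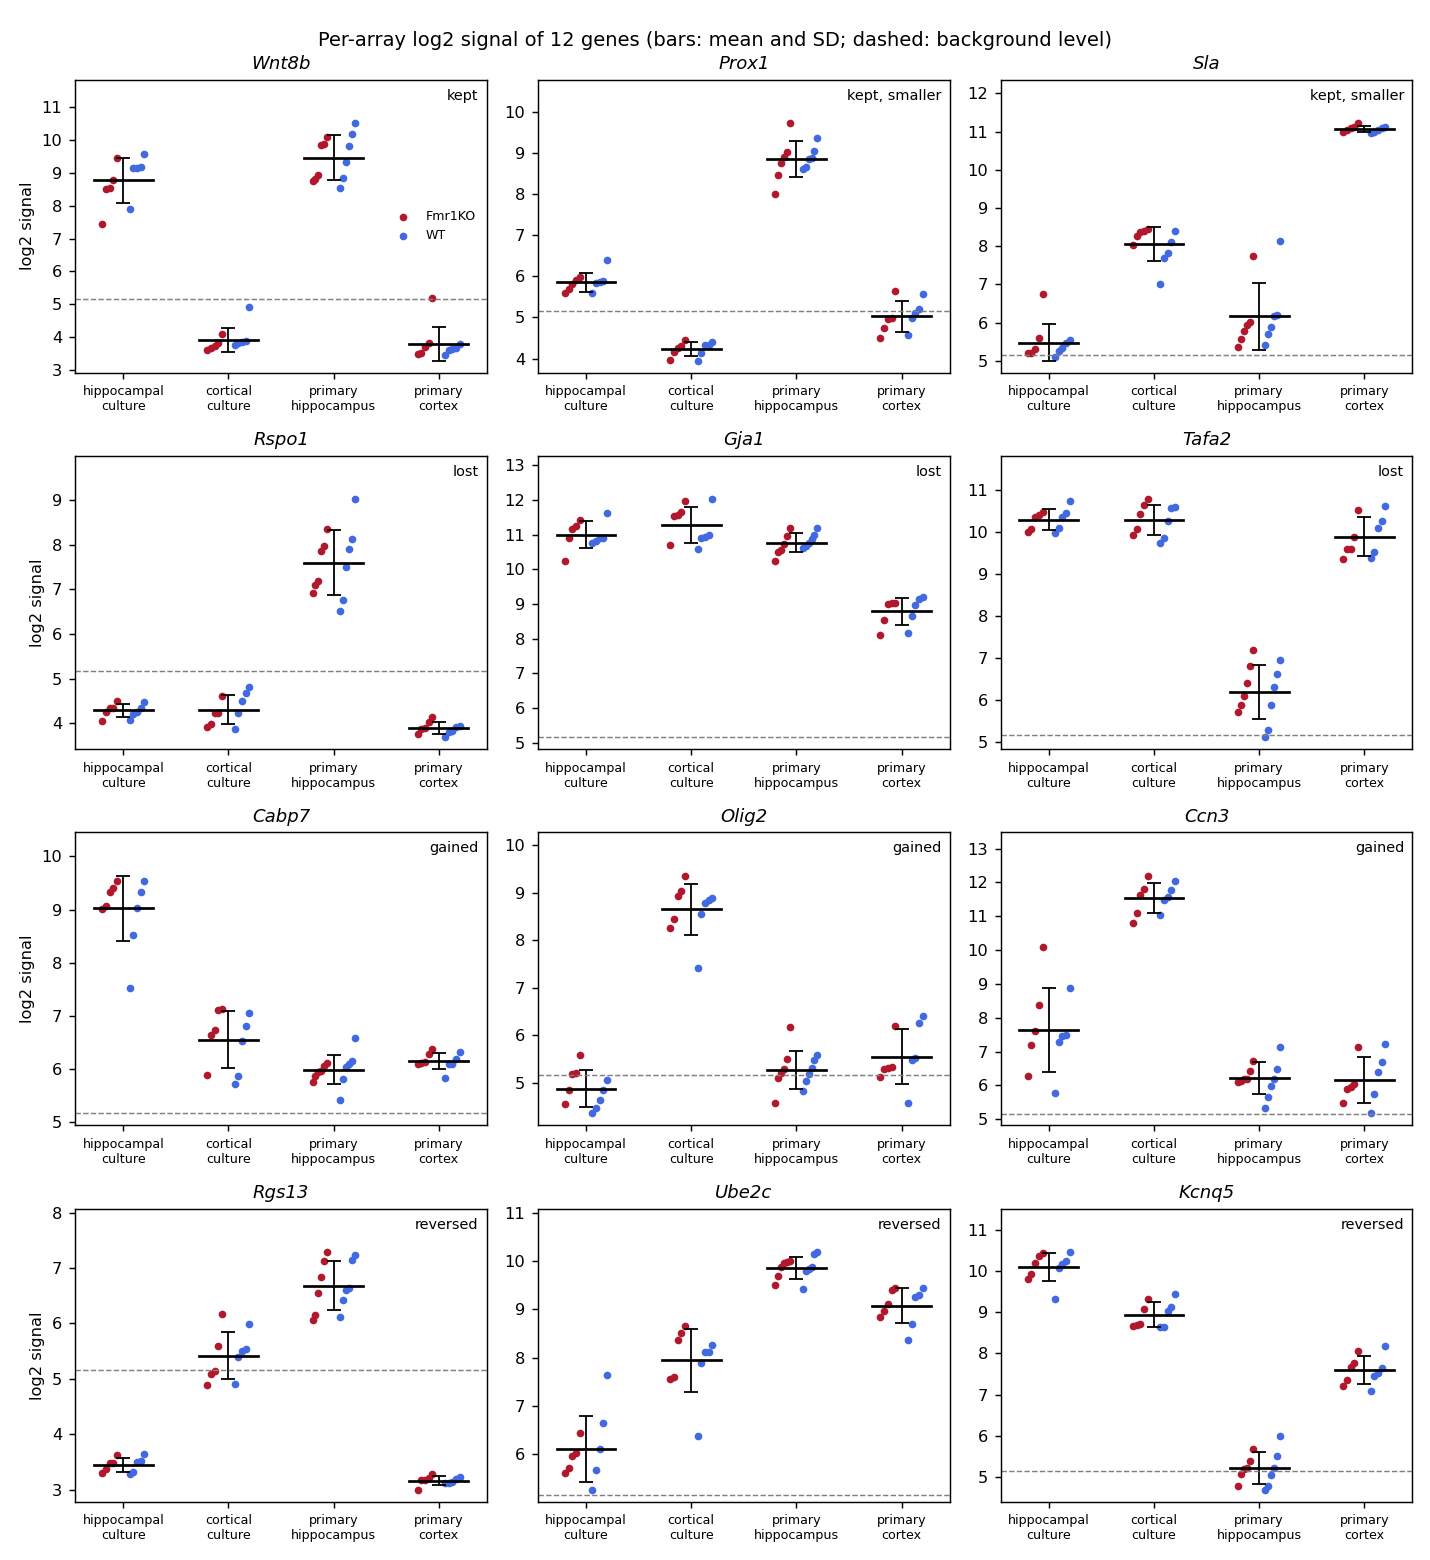
Log2 signal of 12 genes on each array in the 4 systems, with 3 genes per class in rows (kept, lost, gained, reversed); points are arrays coloured by genotype, bars give mean and SD, and the dashed line is the background level of 5.16. Wnt8b is separated by region in both preparations, Rspo1, Gja1 and Tafa2 only in tissue, Cabp7, Olig2 and Ccn3 only in culture, and the means of Rgs13, Ube2c and Kcnq5 stand in opposite order in culture and tissue.

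Lost differences came in more than one form. For 61 of the 299 lost genes both cultures averaged at or below background, 50 of them higher and 11 lower in primary hippocampus, and 238 were above background in at least 1 culture. Of the 217 lost genes that were higher in primary hippocampus, the mean of the cultures lay at or below the lower tissue for 64, between the tissues for 83 and at or above the higher tissue for 70. Of the 82 that were lower there, the cultures lay at or below the lower tissue for 15, between for 33 and at or above the higher tissue for 34.

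Rspo1, an R-spondin that strengthens Wnt signalling, was at background in both cultures. It had 4.05, 4.30 and 4.51 in hippocampal culture and 3.87, 4.23 and 4.80 in cortical culture, against 6.51, 7.67 and 9.01 in the primary hippocampus and 3.69, 3.89 and 4.14 in the primary cortex. No difference was called in culture (-0.02 ± 0.19), against one of at least 13.1-fold in tissue (3.71 ± 0.18, adjusted p = 3.54e-20), and the interaction of -3.73 ± 0.26 (adjusted p = 2.47e-14) was negative in 10 of 10 litters.

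Tac2, the neurokinin B precursor, was at least 14.1-fold higher in primary hippocampus, with medians of 8.91 there and 4.93 in primary cortex. In culture the medians were 4.68 in hippocampal and 4.60 in cortical culture, and the hippocampal culture of KO litter 2038 alone reached 6.38. The interaction was -3.76 ± 0.28 (adjusted p = 1.37e-13). Cyp1b1, a cytochrome P450 enzyme, stood above background in the cultures without a called region difference (medians 5.74 in hippocampal and 6.20 in cortical culture), against 7.45 in the primary hippocampus and 4.34 in the primary cortex. Pdlim3, a PDZ and LIM domain protein, and the uncharacterized transcript E330013P04Rik were at least 9.48-fold and at least 13.2-fold higher in primary hippocampus and at background in both cultures.

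Other lost genes were high in both cultures. Gja1, the astrocytic gap junction protein connexin 43, measured 10.25, 10.91 and 11.62 in hippocampal culture and 10.59, 11.26 and 12.02 in cortical culture, against 10.24, 10.75 and 11.19 in the primary hippocampus and 8.12, 8.98 and 9.20 in the primary cortex. The cultures overlapped throughout while the tissues did not overlap. The culture difference of -0.28 ± 0.17 and the 3.96-fold tissue difference gave an interaction of -2.27 ± 0.24 (adjusted p = 9.22e-10). Cryab, a small heat shock protein, was 6.20-fold higher in primary hippocampus, with culture medians of 8.94 in hippocampal and 9.07 in cortical culture. Rspo2, a second R-spondin, had culture medians of 9.05 and 9.35 in the same order, against 9.90 in the primary hippocampus and 7.42 in the primary cortex, so both cultures stood between the tissues.

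Among genes lower in primary hippocampus, Tafa2, a secreted chemokine-like protein of neurons, showed the clearest loss. It measured 9.98, 10.35 and 10.73 in hippocampal culture and 9.74, 10.34 and 10.78 in cortical culture, against 5.11, 6.20 and 7.20 in the primary hippocampus and 9.36, 9.73 and 10.61 in the primary cortex. Both cultures stood within or above the range of primary cortex. The difference was 0.01 ± 0.20 in culture and -3.70 ± 0.19 in tissue (adjusted p = 3.30e-19), and the interaction of 3.71 ± 0.28 was positive in 10 of 10 litters (adjusted p = 1.56e-13).

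Ube2ql1, a ubiquitin-conjugating enzyme, Dync1i1, a dynein intermediate chain, and Arpp21, a neuronal cAMP-regulated phosphoprotein, followed Tafa2, with culture differences of -0.29 to 0.20 log2 and 7.84-fold, 5.90-fold and 5.48-fold lower signal in primary hippocampus. The probes of Arpp21 disagreed, since 2 of the other 4 were kept, with culture differences of -0.91 and -0.85. Drd1, the D1 dopamine receptor, lost its difference in the other way. It had 5.40, 6.07 and 7.73 in hippocampal culture and 5.48, 5.90 and 6.14 in cortical culture, against 5.12, 5.54 and 5.79 in the primary hippocampus and 7.88, 8.09 and 8.54 in the primary cortex, so the cultures stayed nearer the hippocampal level, with the WT litter 2644 array the highest of them. A second Drd1 probe was reversed (0.34 in culture and -2.12 in tissue). Drd1 also marks striatal projection neurons, whose 16 listed genes had array means of 5.62 to 5.98 in hippocampal culture and 5.81 to 6.37 in cortical culture, against 5.37 to 5.95 in the primary hippocampus and 5.56 to 6.74 in the primary cortex. The part of striatal cells in the dissections was not tested. Grin2b, an NMDA receptor subunit abundant at immature synapses, did not pass in culture (0.14 ± 0.16) and was 2.51-fold lower in primary hippocampus.

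Gained differences were fewer, and 43 of the 130 were at background in both tissues. With litter as a block, through differences within the 10 litters, 69 were called. Ccn3, a matricellular protein, had the largest. It measured 5.78, 7.47 and 10.08 in hippocampal culture and 10.81, 11.59 and 12.20 in cortical culture, against 5.33, 6.19 and 7.15 in the primary hippocampus and 5.17, 5.99 and 7.23 in the primary cortex. The cultures did not overlap and the tissues did. Hippocampal culture was 15.0-fold lower (-3.91 ± 0.33, adjusted p = 1.46e-12), the tissue difference was 0.04 ± 0.32, and a second probe gave an interaction of -3.78 beside -3.94 ± 0.46 (adjusted p = 7.56e-09).

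Olig2, the transcription factor that specifies oligodendrocyte precursors, was at least 13.8-fold lower in hippocampal culture. Its signals were 4.35, 4.84 and 5.58 there and 7.41, 8.82 and 9.36 in cortical culture, against 4.57, 5.25 and 6.16 in the primary hippocampus and 4.57, 5.41 and 6.41 in the primary cortex. Only cortical culture was clearly above background, and the interaction of -3.51 ± 0.28 (adjusted p = 9.90e-13) was negative in 10 of 10 litters. Pdgfra, the growth factor receptor of the same precursors, was 10.5-fold lower in hippocampal culture (medians 5.51 and, in cortical culture, 8.98), against tissue medians of 7.75 in the primary hippocampus and 7.98 in the primary cortex.

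Plxnd1, a semaphorin receptor, and Klhl4, a kelch-like protein, were 6.96-fold and at least 7.61-fold lower in hippocampal culture and did not pass in tissue. Rlbp1, a retinaldehyde-binding protein of glia, was at least 6.92-fold lower there although both tissues stood at 9.41 and 9.46 in the median, above both cultures (3.97 in hippocampal and 6.79 in cortical culture). The region difference was gained at levels lower than those of either tissue.

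In the other direction Cabp7, a neuronal calcium-binding protein, measured 7.52, 9.20 and 9.53 in hippocampal culture and 5.71, 6.69 and 7.13 in cortical culture, against 5.42, 6.00 and 6.58 in the primary hippocampus and 5.83, 6.12 and 6.37 in the primary cortex. Hippocampal culture alone was high, by 5.57-fold over cortical culture (adjusted p = 2.69e-14), with an interaction of 2.65 ± 0.25 (adjusted p = 6.77e-11). Smoc2, a matricellular calcium-binding protein, and Glycam1, a mucin-like glycoprotein, were at least 7.04-fold and 5.22-fold higher in hippocampal culture and at background in both tissues. Cxcl12, the chemokine that guides Cajal-Retzius cells and interneurons, was 4.25-fold higher in hippocampal culture, but it was the cortical cultures that stood low (median 5.65), with 7.77 in hippocampal culture, 7.93 in the primary hippocampus and 8.56 in the primary cortex. Kcnip2, a potassium channel-interacting protein, was 2.91-fold higher in hippocampal culture with overlapping arrays. Its tissue difference of -0.48 log2 had the opposite sign and narrowly missed the call (limma, adjusted p = 0.0548). That difference stayed uncalled in 34 of the 42 fits that left out 1 array.

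Reversed genes were led by Rgs13, a regulator of G protein signalling, which had the most negative interaction of any gene named here. It had 3.27, 3.47 and 3.64 in hippocampal culture and 4.88, 5.45 and 6.16 in cortical culture, against 6.06, 6.62 and 7.29 in the primary hippocampus and 3.0, 3.17 and 3.27 in the primary cortex. The regions did not overlap in either preparation and stood in opposite order, and the lower system of each pair was at background, so both differences are lower bounds. They were -1.97 ± 0.14 (adjusted p = 1.91e-14) in culture and 3.52 ± 0.14 (adjusted p = 2.11e-23) in tissue, an interaction of -5.49 ± 0.20 (adjusted p = 2.18e-23).

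Wif1, a secreted Wnt inhibitor, had a culture difference of -1.42 ± 0.30 with both cultures averaging below background, and was at least 7.73-fold higher in primary hippocampus. Its cortical cultures spread widely (3.48 to 7.30) and overlapped the hippocampal ones. Ntn1, the axon guidance cue netrin 1, was 2.12-fold lower in hippocampal culture and 3.61-fold higher in primary hippocampus, with overlapping culture arrays. Pcdh15, a protocadherin, was at least 3.03-fold lower and at least 2.28-fold higher in the same order. Pygl, glycogen phosphorylase, was at least 4.01-fold higher in primary hippocampus, and its reversal rests on cultures that both averaged below background.

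Of the genes reversed in the other direction, Kcnq5, a subunit of the M-current channel, measured 9.33, 10.17 and 10.46 in hippocampal culture and 8.63, 8.86 and 9.44 in cortical culture, against 4.70, 5.21 and 6.00 in the primary hippocampus and 7.09, 7.58 and 8.18 in the primary cortex. It was higher in every culture than in any tissue array, the cultures overlapped at 1 edge and the tissues did not, and the order of the regions turned, with 2.24-fold higher signal in hippocampal culture and 5.19-fold lower signal in primary hippocampus (interaction 3.54 ± 0.21, adjusted p = 2.16e-16). Of its other probes 1 was also reversed, while the third had no class (interaction 1.56). Kcnab1, a potassium channel beta subunit, was 2.26-fold higher in hippocampal culture and 2.29-fold lower in primary hippocampus. Shisa2, an endoplasmic reticulum protein that dampens Wnt and FGF signalling, was at least 4.30-fold higher in hippocampal culture and 2.11-fold lower in primary hippocampus. For Adamts3, a procollagen-processing protease, the differences were 1.97-fold higher and 2.45-fold lower in the same order.

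The groups of genes behind these classes were described with 21 lists. Over all genes the median region difference was -0.01 in culture and -0.01 in tissue. A list's count is read against the 15.1% of all genes with a positive and the 17.2% with a negative called interaction.

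Of the 29 measured genes of the hem and hippocampal patterning list, 17 were higher in hippocampal culture by the adjusted p and 28 were higher in primary hippocampus, with none lower in either. The median difference was 0.41 in culture and 1.32 in tissue. The interaction was negative for 19 genes and positive for none, 12 were kept, 5 were lost and none was gained or reversed. Prox1, the master factor of dentate granule cells, was at least 3.09-fold higher in hippocampal culture and at least 14.2-fold higher in primary hippocampus (interaction -2.20 ± 0.20, adjusted p = 1.51e-11). Both cortical systems averaged below background, with medians of 5.85 in hippocampal culture and 4.28 in cortical culture, against 8.86 in the primary hippocampus and 4.98 in the primary cortex.

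Among single members of this list, Axin2, a negative feedback target of the pathway, was 1.65-fold higher in hippocampal culture and 4.12-fold higher in primary hippocampus. Lef1, the transcription factor that carries the Wnt signal to DNA, was at background in both cultures (medians 4.66 in hippocampal and 4.33 in cortical culture), against 7.18 in the primary hippocampus and 4.94 in the primary cortex. It counted as kept, through a called culture difference of 0.33 log2 between signals at background. Wnt5a was 2.03-fold higher in culture and 6.14-fold higher in tissue, and Wnt3a, the hem ligand on which the mouse hippocampus depends, was lost, with both cultures at background. Emx2 and Dmrt3, transcription factors graded towards the medial pallium, kept 2.62-fold and 3.19-fold higher signals in hippocampal culture, against 4.72-fold and 5.64-fold in tissue. Bmp6 lost its difference at high levels in both cultures (medians 8.07 in hippocampal and 8.33 in cortical culture), above both tissues (5.34 in the primary hippocampus and 3.95 in the primary cortex).

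The 26 neocortical layer transcription factors mirrored this. In hippocampal culture 13 were lower and 7 higher, in primary hippocampus 20 were lower and 4 higher, and the median difference was -0.36 in culture and -1.05 in tissue. The interaction was positive for 17 and negative for none. Rorb, the layer 4 factor, was 2.12-fold lower in culture and at least 9.48-fold lower in tissue (interaction 2.16 ± 0.20, adjusted p = 4.92e-11). Pou3f2 was 1.53-fold and 5.50-fold lower, and Cux2, an upper-layer homeobox factor, 1.91-fold and 4.11-fold lower. Foxp2, a factor of corticothalamic neurons, was at least 2.23-fold lower in culture and 5.56-fold lower in tissue.

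Of these 26 genes 13 were kept, 1 was lost, 1 was gained and 3 were reversed. Lmo3, a LIM-only cofactor, was 1.83-fold higher in hippocampal culture and 3.96-fold lower in primary hippocampus (interaction 2.86 ± 0.21, adjusted p = 9.77e-14). Tle4, a corepressor of corticothalamic neurons, was 1.34-fold higher and 2.47-fold lower, and Neurod6, a bHLH factor of pyramidal neurons, 2.33-fold higher and 1.51-fold lower. Fezf2, which specifies subcerebral projection neurons, gained a 2.15-fold excess in hippocampal culture, with lower signal in both cultures (medians 8.87 in hippocampal and 7.73 in cortical culture) than in primary hippocampus (10.04) and primary cortex (10.34). Neurod1, a bHLH factor of differentiating neurons, was 8.26-fold higher in hippocampal culture and 4.14-fold higher in primary hippocampus, and Zfpm2, a GATA cofactor, 5.88-fold and 1.98-fold, both with a larger difference in culture.

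The other neocortical markers (25 genes) had 14 positive and 4 negative interactions and a median difference of -0.04 in culture and -0.65 in tissue. The hippocampal field list (24 genes) was mixed, with 9 positive and 7 negative interactions, and Tdo2, a tryptophan dioxygenase, was reversed at signals near or below background in all 4 systems. Interneuron and subpallial genes (22) had a median difference of -0.68 in culture and -0.27 in tissue, with 1 positive and 4 negative interactions. Of these genes 12 were lower in hippocampal culture and 10 in primary hippocampus. Dlx1, a homeobox factor of interneuron precursors, was 3.30-fold lower in culture and 1.53-fold lower in tissue (interaction -1.11 ± 0.34, adjusted p = 0.0120), and its interaction was not called in Fmr1KO arrays alone (-0.83, adjusted p = 0.291).

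**Figure D4:**
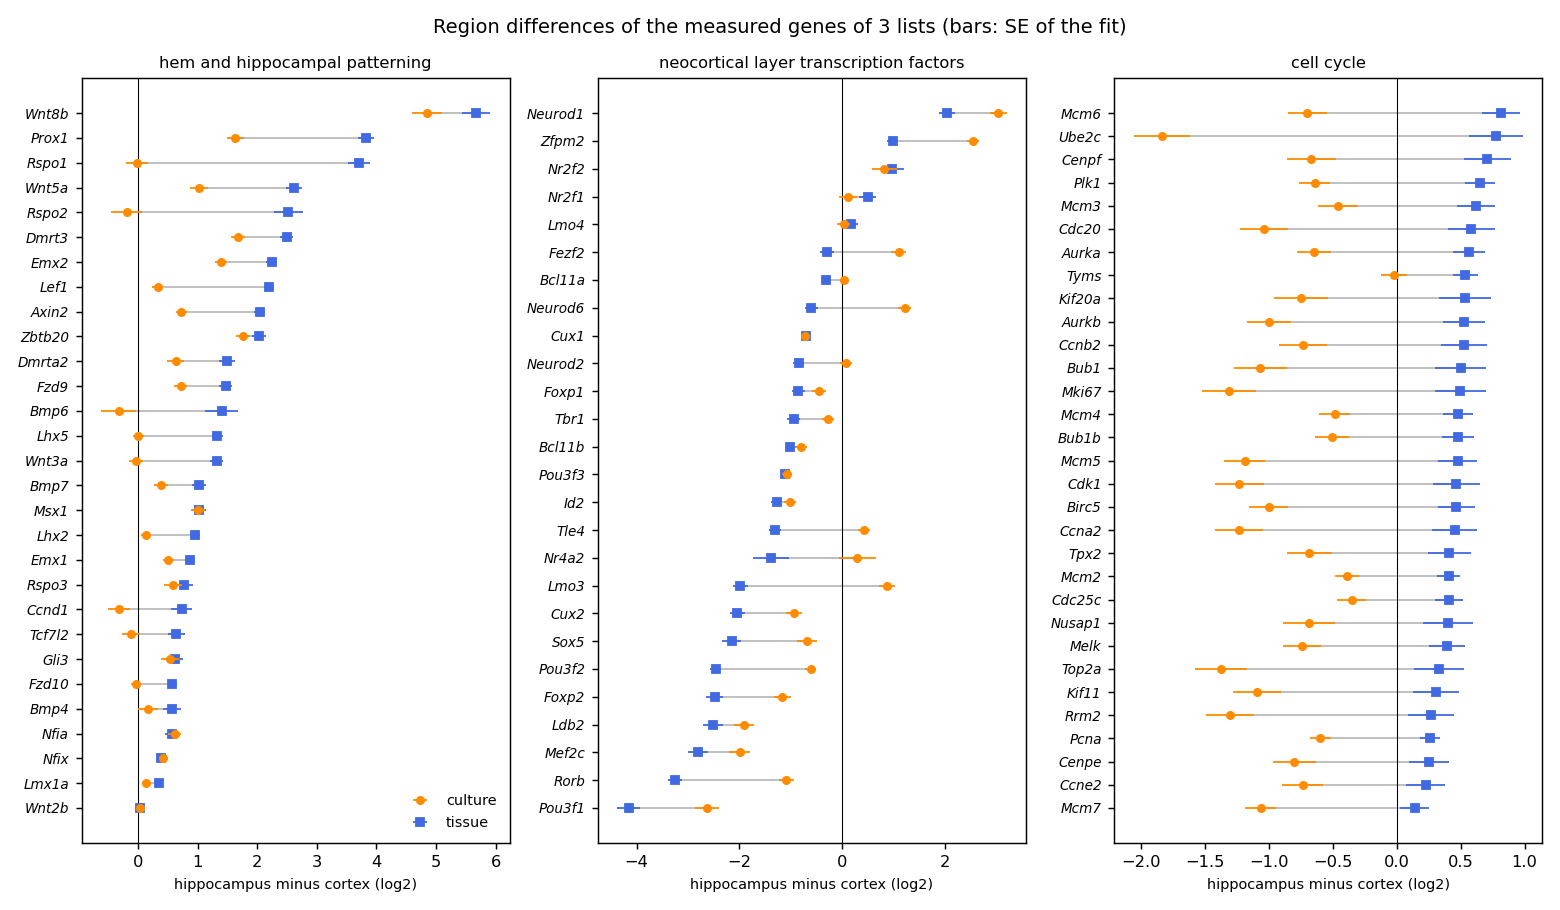
Region difference (log2, with the SE of the fit) of every measured gene of the hem and hippocampal patterning list (29 genes), the neocortical layer transcription factors (26 genes) and the cell cycle list (31 genes), with culture as circles and tissue as squares. Most patterning and layer genes moved towards 0 in culture with some beyond it, and all 31 cell cycle genes lay further left in culture than in tissue.

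Cell cycle genes were the list with the most uniform interaction. All 31 measured genes had a called negative one, against 17.2% of all genes. In culture 30 were lower in hippocampal culture and none higher, in tissue 21 were higher in primary hippocampus and none lower, and the median difference was -0.74 in culture and 0.48 in tissue. Of the 31 genes, 6 were reversed, 6 were gained and the remaining 19 had no called 2-fold region difference in either preparation. Their mean level per array was 5.91 to 7.29 in hippocampal culture and 6.31 to 7.83 in cortical culture, against 8.64 to 9.24 in the primary hippocampus and 8.08 to 8.92 in the primary cortex, so every culture lay below every tissue sample.

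Ube2c, the ubiquitin-conjugating enzyme of the anaphase-promoting complex, illustrated the list. It measured 5.26, 6.00 and 7.64 in hippocampal culture and 6.38, 8.12 and 8.64 in cortical culture, against 9.43, 9.87 and 10.19 in the primary hippocampus and 8.37, 9.18 and 9.44 in the primary cortex. The arrays overlapped by region in both preparations, and the interaction of -2.62 ± 0.30 (adjusted p = 7.88e-09) was negative in 10 of 10 litters. Cdc20, an activator of the same complex, was 2.06-fold lower in hippocampal culture (-1.04 ± 0.19) and higher by 0.58 ± 0.18 log2 in primary hippocampus. Mcm5, a subunit of the replicative helicase, was 2.28-fold lower and 1.39-fold higher in the same order. Top2a, the topoisomerase of mitotic chromosomes, was 2.60-fold lower in hippocampal culture with no called tissue difference (0.33 ± 0.20). Without the hippocampal culture of WT litter 2644, reversed genes numbered 130 in place of 106 and gained genes 151 in place of 130.

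Because the cell cycle list moved as a block, the promoters of its members were examined. The sequences below are the 200 bases before the start site of 3 members, from RefSeq on GRCm38.p6, printed 5′ to 3′ on the gene's own strand with 2 motifs in capitals. These are CCAAT (or its reverse complement ATTGG), the box bound by the factor NF-Y, and TTTGAA (or TTCAAA), the core of the cell cycle homology region of genes expressed in G2 and mitosis. The window of Ube2c is chr2:164769729-164769928 (plus strand), that of Cdc20 chr4:118437344-118437543 (minus strand) and that of Top2a chr11:99024190-99024389 (minus strand).
Ube2c: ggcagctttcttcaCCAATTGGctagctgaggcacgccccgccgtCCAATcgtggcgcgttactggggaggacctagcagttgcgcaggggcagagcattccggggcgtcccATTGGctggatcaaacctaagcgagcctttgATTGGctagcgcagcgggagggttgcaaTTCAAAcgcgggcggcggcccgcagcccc
Cdc20: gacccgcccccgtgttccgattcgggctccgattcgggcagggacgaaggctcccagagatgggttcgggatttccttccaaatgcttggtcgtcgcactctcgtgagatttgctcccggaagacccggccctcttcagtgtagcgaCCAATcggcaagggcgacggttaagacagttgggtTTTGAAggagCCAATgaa
Top2a: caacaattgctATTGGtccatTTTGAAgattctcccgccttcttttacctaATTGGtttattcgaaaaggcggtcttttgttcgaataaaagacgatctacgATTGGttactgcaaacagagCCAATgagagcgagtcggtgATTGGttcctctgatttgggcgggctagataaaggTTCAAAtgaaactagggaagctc

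Ube2c held 5 CCAAT matches (the first CCAAT and ATTGG overlap) and 1 TTTGAA match, Cdc20 held 2 and 1, and Top2a held 5 and 2. RefSeq promoters were found for 24 of the 31 genes, 25 windows in all, and 21 of these (84.0%) held CCAAT on either strand, against 29.3% of all 32851 windows. Both motifs stood together in 8 (32.0%), against 3.69% of all windows. Among the classes, CCAAT was held by 29.8% of the windows of kept genes, 30.6% of lost, 43.3% of gained and 32.0% of reversed genes. The gained and reversed classes each include 6 genes of the cell cycle list, whose part in these shares was not tested. A match says only that the letters are present in the window.

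Of the 21 oligodendrocyte lineage genes, 14 were lower in hippocampal culture and none higher, while in tissue 4 were higher and 4 lower in primary hippocampus. Only 12 of the 21 were above background in at least 1 system, so some of these calls are of signals at background. The interaction was negative for 12 and positive for 1, and array means were 5.08 to 5.26 in hippocampal culture and 5.67 to 6.37 in cortical culture, against 5.19 to 5.56 in the primary hippocampus and 5.29 to 5.59 in the primary cortex. Olig1, unlike Olig2, was high in both cultures (medians 10.98 in hippocampal and 11.84 in cortical culture), and Mog, a protein of mature myelin, was at background in all 4 systems. Sox8, a SoxE factor of the lineage, reversed with at least 5.26-fold lower signal in hippocampal culture and 1.66-fold higher signal in primary hippocampus.

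Of the 20 astrocyte genes, 3 were higher and 4 lower in hippocampal culture, and 14 were higher and 2 lower in primary hippocampus. Their median difference was -0.01 in culture and 0.81 in tissue, and 13 interactions were negative and 1 positive. Slc1a2, the glutamate transporter GLT-1, was kept at 1.96-fold in culture and 5.01-fold in tissue by its brightest probe, while its 2 other kept probes gave interactions of 0.21 each beside -1.36. Gfap, the intermediate filament of astrocytes, had a larger difference in culture (7.27-fold, against at least 3.86-fold in tissue), and its 2 other probes were gained, with culture differences of 2.31 and 2.70 and tissue differences of 0.12 and 0.33. Sox9, a factor of glial fate, was lost like Gja1 (-0.14 ± 0.12 in culture, 1.26 ± 0.12 in tissue), although another of its probes was reversed (-0.30 in culture and 1.11 in tissue). Radial glia and intermediate progenitor genes (21) had a median of -0.24 in culture and 0.77 in tissue with 13 negative and 3 positive interactions. Eomes, the factor of intermediate progenitors, was at background in both cultures (medians 4.75 in hippocampal and 4.89 in cortical culture), against 10.86 in the primary hippocampus and 9.99 in the primary cortex.

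Cajal-Retzius genes (13) had a median difference of 0.03 in culture and 1.45 in tissue, with 8 negative and 3 positive interactions. Lhx1 measured 3.63, 3.87 and 4.28 in hippocampal culture and 3.50, 3.67 and 3.87 in cortical culture, against 6.97, 7.62 and 7.97 in the primary hippocampus and 4.35, 4.92 and 5.43 in the primary cortex. Trp73, Nhlh1, Ebf3 and Lhx5 were likewise lost with both cultures at background. Reln, the secreted signal of these cells and of interneurons, stayed high in all systems, 1.60-fold lower in hippocampal culture and 1.75-fold higher in primary hippocampus.

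Of the 17 microglial genes, 13 were at background in each culture and 14 were higher in primary hippocampus, as C1qb was (medians 3.16 in hippocampal and 3.27 in cortical culture, against 6.25 in the primary hippocampus and 4.92 in the primary cortex). Of these 17 genes 1 was lost. Of the 21 meningeal genes, 16 were higher in primary hippocampus and 4 were lost. Their array means overlapped between cultures and tissues, with 5.25 to 5.84 in hippocampal culture and 4.95 to 5.58 in cortical culture, against 5.56 to 6.24 in the primary hippocampus and 4.84 to 5.09 in the primary cortex. The collagens Col1a2 and Col3a1 were lost with both cultures at background, whereas Dcn, decorin, was lost with widely spread cultures (4.81 to 9.20 in hippocampal and 5.05 to 8.87 in cortical culture). The part of these cells in the lost class was not tested. Microglial means per array were 4.28 to 4.59 in hippocampal and 4.26 to 4.53 in cortical culture, against 5.56 to 6.21 in the primary hippocampus and 5.19 to 5.39 in the primary cortex.

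**Figure D5:**
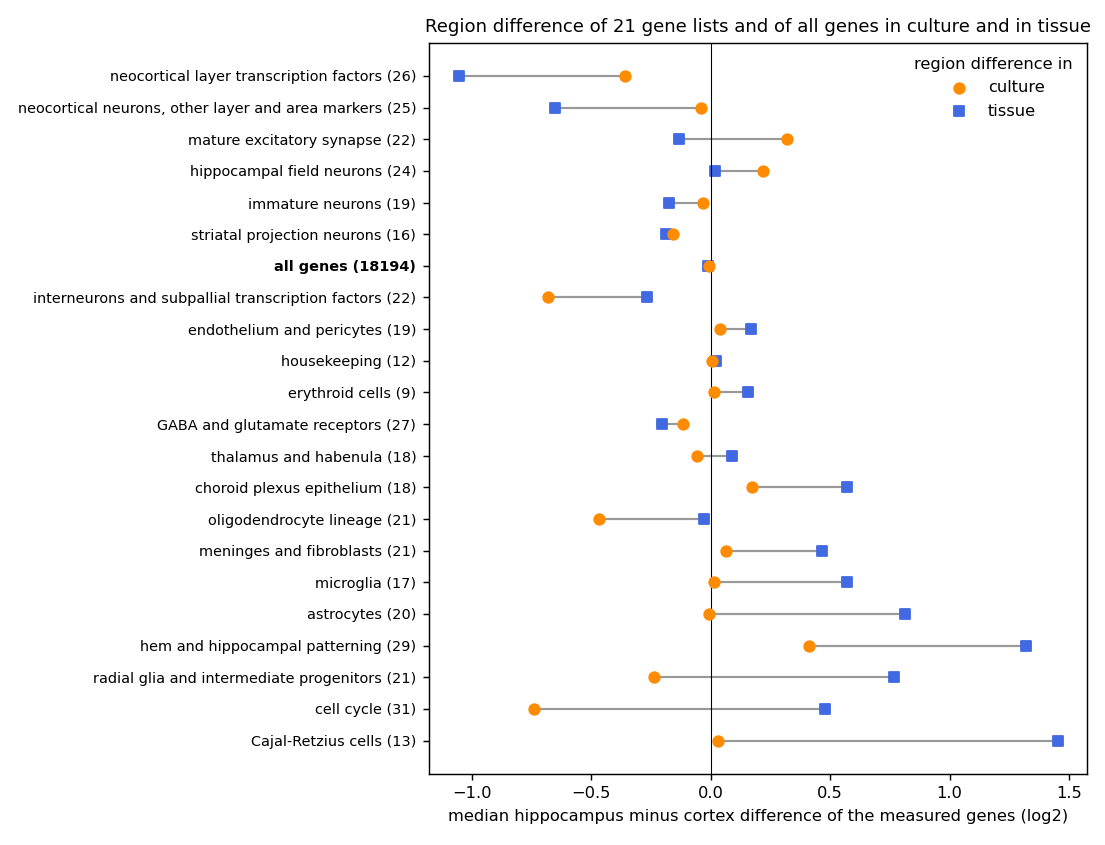
Median region difference (log2) of the measured genes of 21 lists and of all genes, in culture (circles) and in tissue (squares), with the number of genes in brackets and lists ordered by their median interaction. Cajal-Retzius, cell cycle, radial glia and patterning lists lie lowest, with tissue medians of 1.45, 0.48, 0.77 and 1.32, and the neocortical lists lie highest.

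Synaptic genes moved the other way. Of 22 genes of the mature excitatory synapse, 12 had a positive interaction and none a negative one, 10 were higher in hippocampal culture and 1 lower, while 1 was higher and 8 were lower in primary hippocampus. The array means were 9.07 to 10.004 in hippocampal culture and 8.87 to 9.71 in cortical culture, against 7.40 to 7.82 in the primary hippocampus and 7.68 to 7.92 in the primary cortex. Snap25, a SNARE of synaptic vesicles, was 1.29-fold higher in hippocampal culture and 1.44-fold lower in primary hippocampus (interaction 0.90 ± 0.11, adjusted p = 2.01e-08). Slc17a7, the vesicular glutamate transporter VGLUT1, was gained at 2.82-fold, with both tissues at background, and Kcna1, a potassium channel of axons, was gained at 2.10-fold.

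Receptors for GABA and glutamate (27) had 7 positive and 9 negative interactions. Gabrg1, a GABA-A subunit, reversed, with at least 3.59-fold lower signal in hippocampal culture and 1.91-fold higher signal in primary hippocampus. Gabra4 had a smaller difference in culture (1.21-fold, against 2.97-fold in tissue), and its other probe was lost (0.15 in culture and 1.09 in tissue). Gria3, an AMPA receptor subunit, was 1.26-fold lower in hippocampal culture and 2.36-fold lower in primary hippocampus. Housekeeping genes (12) had medians of 0.01 in culture and 0.02 in tissue, with 4 positive and 3 negative interactions, and Gusb, which encodes a lysosomal enzyme, was lost (2.30-fold in tissue). Endothelial genes (19) had 1 positive and 5 negative interactions, and erythroid genes (9) had 1 of each. Above background in at least 1 system were 15 of these endothelial genes and only 3 of the erythroid genes.

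Both genotypes were compared directly by the three-way term, the interaction in Fmr1KO minus that in WT. No gene was called (0 of 18194, limma, adjusted p under 0.05, smallest adjusted p 1). At an unadjusted p under 0.05, 422 genes (2.32%) passed, a share below the 0.05 that chance alone would give. The fit had no litter term, and the part of this in the low share was not tested. The absence of calls therefore does not show that genotype plays no part. Among the 713 genes with a 2-fold region difference in WT tissue, the median tissue difference in Fmr1KO was 0.977 of that in WT, and the median Fmr1KO culture difference was 0.169 of the Fmr1KO tissue difference. With Fmr1KO arrays alone 114 genes were reversed, and with WT arrays alone 40 were. These counts depend on the spread within each genotype and are not a test of a genotype difference. The WT arrays include the outlying hippocampal culture of litter 2644, without which 130 genes were reversed in place of 106 over both genotypes. WT arrays alone were not fitted without it, and its part in the WT count was not tested.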

How the data were processed

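The values were deposited by the authors as log2 signals of Affymetrix mouse whole-genome arrays, processed by RMA (version not given in the sources used here). RMA aligns the probe distributions of the arrays, so differences are relative to the rest of the transcriptome. Precision is limited by how many arrays each system has. The file held 45101 probes, and 45037 were tested once the 64 control probes had been removed. Names came from the platform annotation, under which 34945 probes had 1 gene, 932 had several and 9160 had none. Of the probes with 1 gene, 34741 were found in RefSeq by Entrez ID.

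limma (version 3.58.1, R 4.3.3) was fitted to the means of the 4 systems with genotype as covariate (37 residual degrees of freedom), followed by eBayes and Benjamini-Hochberg adjustment, with calls at an adjusted p under 0.05. The procedure was tested on simulated data with known interactions and noise drawn independently for each array. That simulation held no correlation between arrays of a litter, so it does not bear on the missing litter term. The background was the 95th percentile of the means of 123 probes. Genes were named as the 5 per class and direction with the largest value (the smaller of both contrasts for kept and reversed, the interaction for lost and gained), 3 more lost and gained genes above background in all systems, and 4 per list by interaction p. Further members of the lists are named beside their counts and were chosen after their values were seen. The members and the gene lists were chosen with earlier results of these data known. Of 439 list symbols, 29 were not measured.

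The labels give a mouse ID, read here as a litter, which recurs in both regions and in both preparations. Deviations from the group means of same-litter arrays correlated with a median of 0.292 between hippocampal and cortical culture (above 0.1 in 8 of 10 litters) and 0.397 between primary hippocampus and cortex (10 of 10), and with medians of 0.001 to 0.066 across preparations. The main fit had no litter term, and alternatives with litter as a block, by genotype, by normalization, by filter and by threshold were run. Folds and p-values were computed here. Promoters were RefSeq windows on GRCm38.p6.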

Additional observations from a re-analysis of the deposited data

Results flagged for a closer look

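In groups of 10 arrays, a highest or lowest array was listed where its gap to the nearest other array exceeded Dixon's 95% critical value, which chance alone gives for about 1 group in 20. Of 342 groups (114 named genes in 3 systems; the 12 arrays of primary hippocampus were not checked) 27 were listed, which is 7.89%.

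Of the 27, 10 were the hippocampal culture of WT litter 2644. It was the lowest of its system for Arpp21 (9.80), Cabp7 (7.52), Calb2 (9.61), Dync1i1 (10.13), Mllt11 (12.23), Ppp1r1b (5.36) and Stmn2 (12.24), and the highest for Cryab (10.94), Sox6 (8.20) and Wif1 (4.10). Without this array 6308 genes had a called interaction in place of 5881, and 439 differences were kept, 303 lost, 151 gained and 130 reversed.

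In the other hippocampal cultures, the highest arrays listed were KO litter 2620 for Aif1 (4.21) and Sla (6.76), KO litter 2221 for Nhlh1 (3.84), KO litter 2038 for Tac2 (6.38), WT litter 2236 for Prox1 (6.41), and WT litter 3569 for Klhl4 (4.54) and Rorb (6.74). In cortical culture, WT litter 2236 was lowest for Mllt11 (11.97), Neurod6 (8.41) and Sla (7.0), WT litter 3569 was lowest for Ube2c (6.38) and highest for Gadd45g (9.53), and WT litter 2643 was highest for C1qb (3.51) and Wnt8b (4.92). In primary cortex, WT litter 3569 was lowest for Cabp7 (5.83), WT litter 2643 was listed for Clic6 (5.44, lowest), and KO litter 2038 was highest for Wnt8b (5.20). Aif1, Nhlh1, C1qb, Wif1, Klhl4 and both Wnt8b values lie near or below the background of 5.16.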

How the results depend on the processing

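No interaction called among the 114 named genes changed sign under the 16 settings run (1819 values over all 114). Of these values 1788 stayed on their side of the threshold, 27 lost the call and 4 gained it. The replicate block, with litter as a fixed term, gave 5893 genes with an interaction, 433 kept, 265 lost, 143 gained and 106 reversed, and as a random term 6152, 448, 292, 125 and 113 in the same order. By differences within the 10 litters the gained genes numbered 69 and the undecided 8. With the block within preparation, chosen after seeing the data, 454 were kept, 258 lost, 126 gained, 114 reversed and 10 undecided. Of the 299 lost genes of the main fit, 253 were lost there too, and of the 130 gained genes 116 were gained there too. As a fixed term the block ended the call of 1 named gene, Cnmd. KO arrays alone gave 208 gained and 56 undecided genes, and WT arrays alone gave 1846 interactions, 40 reversed and 197 undecided genes. Leaving out probes at background left 10 undecided, and an adjusted p under 0.01 left 48. Without a fold minimum, 5881 interactions, 5195 culture and 6656 tissue differences counted, with 1612 kept, 2557 lost, 1616 gained, 924 reversed and 2606 undecided. At 1.5-fold these were 2348, 1238, 1766, 795, 826, 440, 336 and 104.

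Leaving out 1 array at a time gave 5605 to 6308 interactions, 876 to 1030 of at least 2-fold, 434 to 482 culture and 685 to 739 tissue differences, 427 to 452 kept, 283 to 317 lost, 124 to 151 gained, 92 to 130 reversed and 9 to 23 undecided genes. The undecided count fell to 9 without the hippocampal culture of WT litter 2644 and was 23 without the primary cortex of KO litter 2620. Where these counts moved, the cause was not tested. Of 342 culture, tissue and interaction values of the 114 named genes, 323 stayed on their side of the threshold whichever array was left out, and 2 moved by over 1.5 times, both of Ttr. The calls of the other 19 changed without at least 1 array, and their adjusted p with all arrays lay between 0.0255 and 0.105. They were the interactions of Cnmd, Rerg and Wnt8b, the culture differences of Aif1, Cbs, Drd1, Gabra4, Gadd45g, Gria3, Hes5, Slco1a4 and Ube2ql1, and the tissue differences of Cxcl12, Dlx1, Foxc1, Hbb-bh1, Kcnip2, Klhl4 and Plxnd1. Signals near background limit the lower of each pair.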
